A study of Homo sapiens with 6 samples.

Results

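The androgen target genes described here are 40 genes that androgen is known to regulate in prostate cells, with the kallikreins left out. They were chosen by gene symbol, but with earlier results of these data known. All 40 were found among the 27470 genes of the count table. Of these, 29 had enough reads to be tested, and 11 did not. The libraries were made from 22Rv1-ABHD5 cells. 22Rv1 is an established human line of prostate cancer that grows after castration, and these cells carry the lentiviral vector pInducer20, from which doxycycline (Dox) induces ABHD5, the coactivator of the triglyceride lipase ATGL. The cells were infected and selected with G418, and whether they are 1 clone is not stated. RNA was sequenced from cells grown for 48 h without Dox (control, 3 libraries) and with Dox (OE in the labels, 3 libraries), and the cells of both conditions carry the vector. No library of parent cells with Dox was used here, so that Dox and ABHD5 cannot be told apart. The labels do not say whether the replicates were separate cultures, and p-values then measure only the spread between these samples.

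Steroid hormones act through receptors that rest in the cytosol with HSP90 chaperones, move to the nucleus upon hormone binding and attach to DNA at hormone response elements. The androgen response element is a palindrome of a short half-site, bound by a receptor dimer, and in prostate cells most such elements in use lie in enhancers that the pioneer factor FOXA1 opens. Genes such as TMPRSS2 and FKBP5 serve as readouts of androgen signalling in prostate cancer. The glucocorticoid receptor recognizes nearly the same element and shares some of these targets.

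Between 3394672 and 7271771 reads per library fell on genes, and 32.5% to 34.6% of the reads without Dox and 35.6% to 39.5% with Dox fell on no gene, a difference whose part in the results was not tested. ABHD5 had 63.5, 58.0 and 62.8 CPM (read counts scaled to an equal, TMM-normalized library size, as throughout) without Dox and 126, 131 and 91.7 with Dox (log2 fold change 0.91, standard error (SE) 0.15). Its adjusted p was 1.978e-04 (quasi-likelihood test of edgeR, Benjamini-Hochberg over all genes tested). How many reads of the vector were counted on this gene is not known, so the change need not equal the induction. All 7 luminal prostate markers were detected, among them KRT8, KRT18, FOXA1 and HOXB13, with a summed level of 1759 to 1841 CPM without Dox and 1268 to 1438 with Dox. Of the 5 basal markers, KRT5 and KRT14 were at 0 in every library, and the list summed to 0.524 to 1.04 CPM without Dox and 16.7 to 21.4 with Dox, nearly all of it NGFR. The 6 stromal markers summed to 4.96 to 9.95 and 7.24 to 11.4 CPM, the 5 leukocyte markers to 3.13 to 5.27 and 4.33 to 6.12, and the 4 endothelial markers to at most 0.310.

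With Dox, more androgen target genes fell than rose. Of the 29 tested, 15 fell and 2 rose at an adjusted p under 0.05 (edgeR's quasi-likelihood test, as for every adjusted p given here), and 12 did not pass. Among all 12233 genes tested, 25.5% passed in either direction, 13.7% lower and 11.9% higher. The median log2 fold change of the tested targets was -0.67, against 0.02 for all genes. A fall of at least 2-fold at an adjusted p under 0.05 was seen for 10 of the 29, against 3.23% of all genes. No target rose that far at this threshold, against 4.32% of all genes. ACPP, counted among those that fell, passed the count filter only through the libraries without Dox. For 20 of the 29, the libraries of the conditions did not overlap, as for 39.5% of all genes. In bulk RNA, fewer cells that express a gene and less RNA per cell cannot be told apart.

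**Figure D1:**
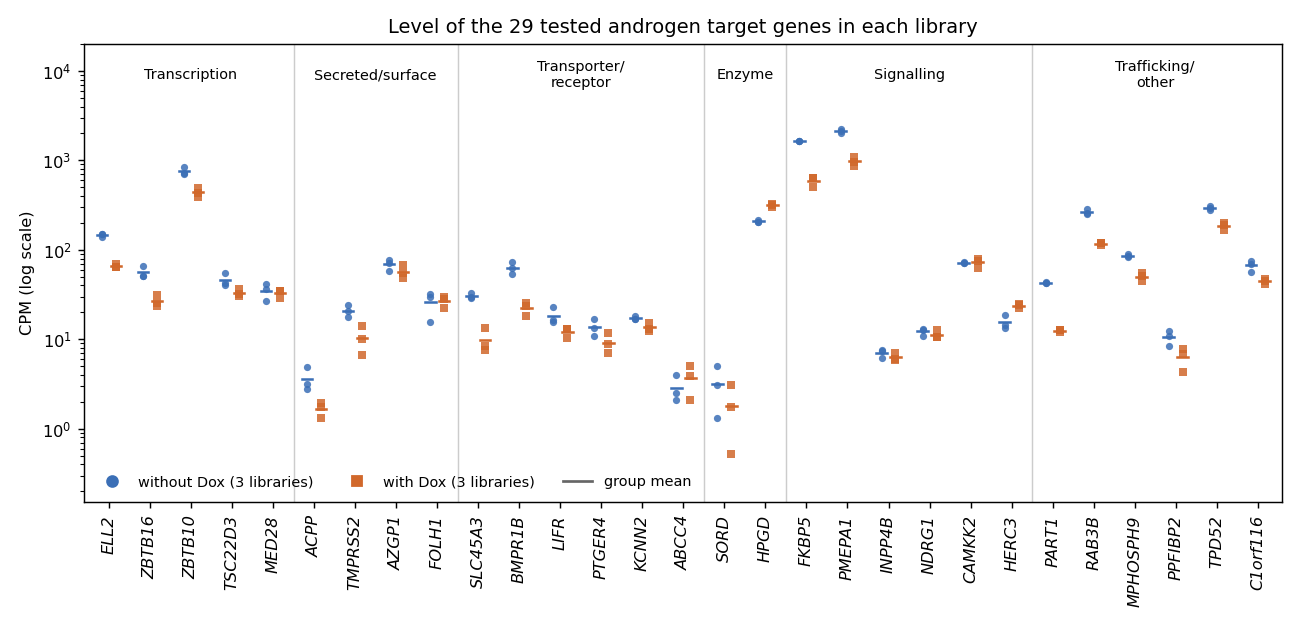
The vertical axis gives CPM on a log scale for each of the 29 tested targets, grouped by role; circles are the 3 libraries without Dox, squares the 3 libraries with Dox, and short lines the means. For FKBP5 the libraries without Dox sit between 1637 and 1663 CPM and those with Dox between 509.5 and 638, while the CAMKK2 libraries overlap.

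The summed level of the 40 targets was 6104, 6239 and 6197 CPM in replicates 1, 2 and 3 without Dox and 3413, 3249 and 2894 with Dox, so that the conditions did not overlap. PMEPA1 and FKBP5 made up 59.7% to 62.2% of this sum without Dox and 47.8% to 50.3% with Dox. Without these genes, the other targets summed to 2393 ± 95.9 CPM (SD, n = 3) without Dox and 1620 ± 97.2 with Dox. The fall was therefore seen both in the abundant pair and in the sum of the rest.

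**Figure D2:**
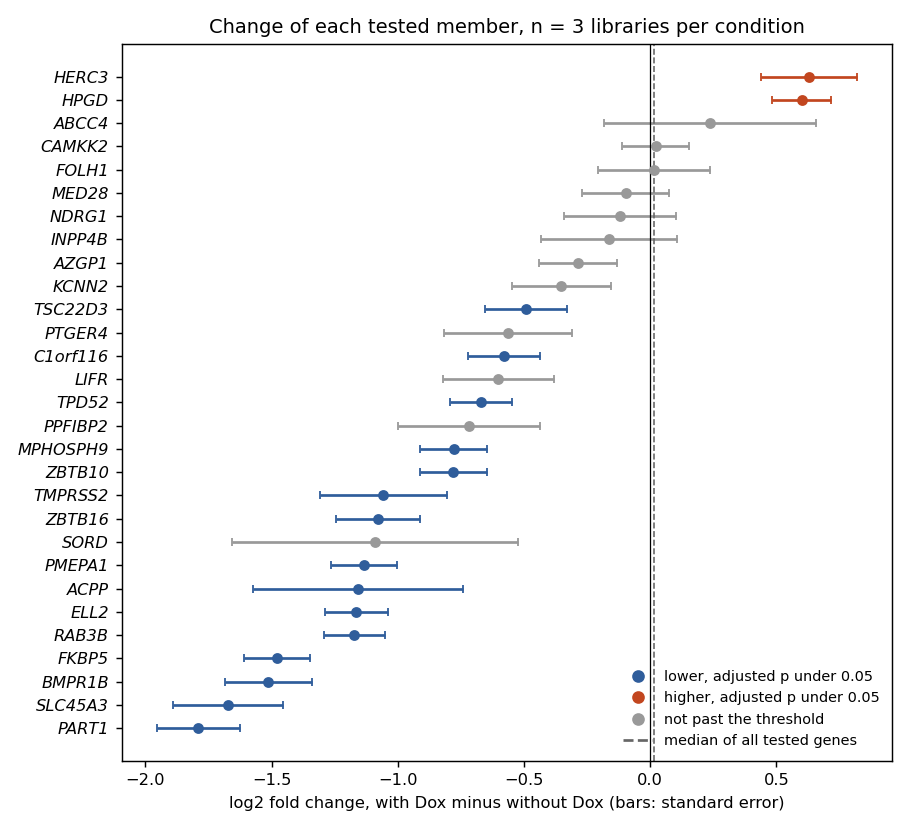
Each point is the log2 fold change of a tested target (with Dox minus without Dox, 3 libraries per condition), with its standard error as a bar; the dashed line is the median of all tested genes, 0.02. The changes run from -1.79 for PART1 to 0.63 for HERC3, and 15 targets fell while 2 rose.

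Among the signalling genes, the targets with the most reads fell together, whereas the kinase gene CAMKK2 did not pass the test. FKBP5 encodes an HSP90 cochaperone that acts on steroid receptors and is found at 35573585 to 35728583 of chromosome 6 (hg38, as for all genes here). Its level was 1658, 1637 and 1663 CPM without Dox and 631, 638 and 509.5 with Dox. Every library with Dox was far below every library without it, and the log2 fold change was -1.48 (SE 0.13, adjusted p = 2.84e-07). PMEPA1, a membrane adaptor that dampens TGF-beta signalling, lies on chromosome 20 from 57648392 to 57711536. It had 2141, 2223 and 2039 CPM without Dox and 1084, 959 and 874 with Dox, a log2 fold change of -1.13 (SE 0.13, adjusted p = 5.606e-06). HERC3, a HECT-type ubiquitin ligase gene, went the other way, from 14.6, 18.6 and 13.4 CPM to 24.8, 24.5 and 22.3 (log2 fold change 0.63, SE 0.19, adjusted p = 0.0228). It no longer passed without replicate 1 or 3 without Dox or replicate 1 with Dox (adjusted p = 0.0928, 0.1045 and 0.0728). CAMKK2, which encodes a calcium-dependent kinase that can phosphorylate AMPK, had 72.9, 70.7 and 70.9 CPM without Dox and 79.8, 62.9 and 74.5 with Dox, a log2 fold change of 0.02 (SE 0.13, adjusted p = 0.927). NDRG1, a stress-responsive gene, had a log2 fold change of -0.12 and INPP4B, a phosphoinositide phosphatase gene, -0.16, with overlapping libraries and adjusted p of 0.737 and 0.705. IQGAP2, a scaffold gene, was under the count filter, with 1, 0 and 3 counts without Dox and 4, 9 and 31 with Dox, at least 3.33-fold higher by means when the limit of 3 counts per library stands for the level without Dox. With no filter on low counts it passed (log2 fold change 2.96, adjusted p = 9.541e-04). With the filter and 1 library left out, it was tested only when replicates 2 and 3 with Dox were both kept.

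Promoters of 27 targets were in the RefSeq table used here (GRCh38.p14, 56 windows from 250 bases before to 50 after a start). The full element, AGAACA and then TGTTC after any 3 bases, read on both strands, was in 0 of these windows and in 4 of 35116 windows of all genes (0.0114%). The half-site AGAACA, or TGTTCT on the other strand, was in 7 windows of 6 targets (12.5% of windows, against 14.8% of all windows). The sites of FKBP5 and PMEPA1 are shown because these targets had the most reads and fell; each is written 5′ to 3′ on the strand of the gene, with the half-site in capitals.
FKBP5, chr6:35728566-35728595, minus strand, half-site at the start itself: caccactaccccAGAACAaactcctacctc
PMEPA1, chr20:57710789-57710818, minus strand, half-site 229 bases before a start: acctgaagaatgTGTTCTtgtagcactcct
PMEPA1, chr20:57711433-57711462, minus strand, half-site 22 bases after another start: cttgacttctccAGAACAagcctcctggtc
These matches are letters in a window, not measured binding sites. The other sites were in windows of LIFR and PPFIBP2, which did not pass the test, and of TRPM8 and IQGAP2, which were under the count filter and not tested. The promoters of PART1, SLC45A3, BMPR1B and RAB3B, whose transcripts fell by over 2-fold, held neither form.

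Of the 8 targets that act in transcription, 5 were tested, 4 fell and none rose, against 13.7% lower and 11.9% higher of all genes. In this and the following role groups, so few genes carry no result about the role. ELL2, an elongation factor of RNA polymerase II, had 140, 152 and 150 CPM without Dox and 63.7, 69.6 and 63.8 with Dox. The log2 fold change was -1.16 (SE 0.12, adjusted p = 2.275e-06), and the libraries of each condition lay close together. ZBTB16, which encodes the zinc finger repressor PLZF, had 51.2, 66.7 and 51.7 CPM without Dox and 25.4, 31.4 and 23.8 with Dox (log2 fold change -1.08, SE 0.17, adjusted p = 1.183e-04). ZBTB10, another zinc finger gene, had 714, 706 and 844 CPM without Dox and 490, 436 and 392 with Dox (log2 fold change -0.78, SE 0.13, adjusted p = 2.941e-04). The conditions did not overlap for any of these genes. TSC22D3, which encodes the glucocorticoid-induced leucine zipper, had 46.0 ± 7.84 CPM (SD, n = 3) without Dox and 32.8 ± 3.05 with Dox, a log2 fold change of -0.49 (adjusted p = 0.0328). This call was lost under 6 of 14 alternatives, with adjusted p up to 0.189, among them scaling by library totals and the removal of replicate 1 or 3 without Dox or replicate 1 or 2 with Dox. MED28, a Mediator subunit gene, had 34.9 ± 7.18 and 32.8 ± 3.06 CPM and a log2 fold change of -0.10 (SE 0.17, adjusted p = 0.724). EAF2, a partner of the ELL factors, had 5 to 12 counts without Dox and 5 to 24 with Dox, and MAF had 3 to 10 and 0 to 5. SNAI2 was at 0 in every library, where 3 counts would be 0.394 to 0.930 CPM.

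Of the 7 genes of secreted and surface proteins, 4 were tested, and TMPRSS2 and ACPP fell (13.7% of all genes fell). TMPRSS2, a transmembrane serine protease gene on chromosome 21 from 41464300 to 41531116, had 17.8, 24.2 and 20.9 CPM without Dox and 14.1, 10.02 and 6.70 with Dox. All libraries with Dox were below those without it, and the log2 fold change was -1.06 (SE 0.25, adjusted p = 0.00505). It passed in each of the 14 alternatives, 6 of which left out a library. ACPP, the gene of prostatic acid phosphatase, had 19, 9 and 18 counts without Dox and 8, 7 and 10 with Dox, a log2 fold change of -1.16 (SE 0.42, adjusted p = 0.0492). At this depth the call was fragile, since it was lost under 11 of 13 alternatives, without any 1 of the 6 libraries included (adjusted p up to 0.241). The count filter admitted ACPP only through the libraries without Dox, where it was higher, so this call lends no support to a fall. FOLH1, which encodes prostate-specific membrane antigen, had 29.8, 15.5 and 32.1 CPM without Dox and 28.3, 29.5 and 22.6 with Dox (log2 fold change 0.01, SE 0.22, adjusted p = 0.973), and its reads could be shared with a close paralog. AZGP1, a secreted zinc-binding glycoprotein gene, had 69.2 ± 9.64 and 57.2 ± 9.66 CPM (SD, n = 3 each; log2 fold change -0.29, SE 0.16, adjusted p = 0.192). For both genes the conditions overlapped. MSMB, which encodes a protein of the seminal plasma, had 5, 3 and 2 counts without Dox and 0, 0 and 5 with Dox. ORM1, an acute-phase gene with a near-identical copy, had 0 to 2 counts, and ADAM7 had none.

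Of the 7 transporter, channel and receptor genes, 6 were tested and 2 fell, against 13.7% of all genes. Both fell by over 2-fold, against 3.23% of all genes. SLC45A3, which encodes the prostate membrane protein prostein on chromosome 1 from 205657851 to 205680509, had 28.99, 30.1 and 33.0 CPM without Dox and 13.3, 8.35 and 7.62 with Dox. Its log2 fold change of -1.67 (SE 0.22, adjusted p = 2.227e-05) was among the lowest 0.793% of all genes. BMPR1B, a type I receptor of bone morphogenetic proteins, had 53.3, 73.5 and 62.0 CPM without Dox and 23.5, 25.3 and 18.1 with Dox (log2 fold change -1.51, SE 0.17, adjusted p = 5.506e-06). Neither gene overlapped between the conditions. LIFR, the receptor of leukemia inhibitory factor, had 22.7, 15.5 and 16.4 CPM without Dox and 13.05, 13.1 and 10.2 with Dox, a log2 fold change of -0.60 (SE 0.22) that stood just outside the threshold (adjusted p = 0.0532). It was past the threshold under 3 of 14 alternatives, one of them the fit with the replicate number as a block (adjusted p = 0.0389). PTGER4, the prostaglandin receptor EP4, had a log2 fold change of -0.56 (SE 0.25, adjusted p = 0.116) and KCNN2, a calcium-activated potassium channel gene, -0.35 (SE 0.20, adjusted p = 0.209). ABCC4, an exporter of cyclic nucleotides and other anions, had only 8 to 23 counts per library in both conditions (log2 fold change 0.24, SE 0.42, adjusted p = 0.726). TRPM8, the cold-sensing channel, had at most 1 count per library.

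Of the 5 metabolic enzymes, 2 were tested, and HPGD rose (11.9% of all genes rose). HPGD encodes the dehydrogenase that inactivates prostaglandins and lies on chromosome 4 from 174490175 to 174523154. Its level was 217, 203 and 207 CPM without Dox and 321, 324 and 304 with Dox, with little spread within a condition. The log2 fold change was 0.60 (SE 0.12, adjusted p = 0.00106), and it was past the threshold under each of 14 alternatives (0.57 to 0.72). SORD, the sorbitol dehydrogenase gene, had 5, 10 and 29 counts without Dox and 8, 11 and 4 with Dox. Its log2 fold change of -1.09 had an SE of 0.57 (adjusted p = 0.173), the conditions overlapped, and a close pseudogene could share its reads. NNMT and ALDH1A3, genes of nicotinamide methylation and retinoic acid synthesis, had 2 to 13 and 0 to 5 counts, and GNMT, the glycine methyltransferase gene, had 0 counts in all but 1 library, which had 2.

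All 6 of the trafficking and remaining targets were tested, and 5 fell, against 13.7% of all genes. PART1, a long noncoding RNA gene on chromosome 5 from 60487713 to 60548813, had the lowest log2 fold change of the targets. Its level was 42.3, 44.04 and 42.9 CPM without Dox and 12.6, 11.97 and 12.6 with Dox. The spread within either condition was under 1 CPM (SD 0.871 and 0.372, n = 3 each), and the log2 fold change was -1.79 (SE 0.16, adjusted p = 4.269e-07). RAB3B, a small GTPase of vesicle exocytosis, had 256, 287 and 248 CPM without Dox and 119, 119 and 113 with Dox (log2 fold change -1.17, SE 0.12, adjusted p = 1.778e-06). MPHOSPH9, a centrosomal protein gene, had 89.3, 84.4 and 82.9 CPM without Dox and 50.9, 54.5 and 44.8 with Dox (log2 fold change -0.78, SE 0.13, adjusted p = 3.462e-04). TPD52, a vesicle trafficking gene often overexpressed in prostate cancer, fell from 294 ± 16.5 to 185 ± 17.1 CPM (SD, n = 3 each; adjusted p = 6.429e-04). C1orf116, which encodes a specifically androgen-regulated protein, fell from 67.0 ± 9.05 to 44.7 ± 2.57 CPM (adjusted p = 0.00662). PPFIBP2, a liprin gene, had 12.3, 10.9 and 8.38 CPM without Dox and 4.35, 7.79 and 6.83 with Dox (log2 fold change -0.72, SE 0.28, adjusted p = 0.0705), and it was past the threshold only without replicate 2 with Dox.

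**Figure D3:**
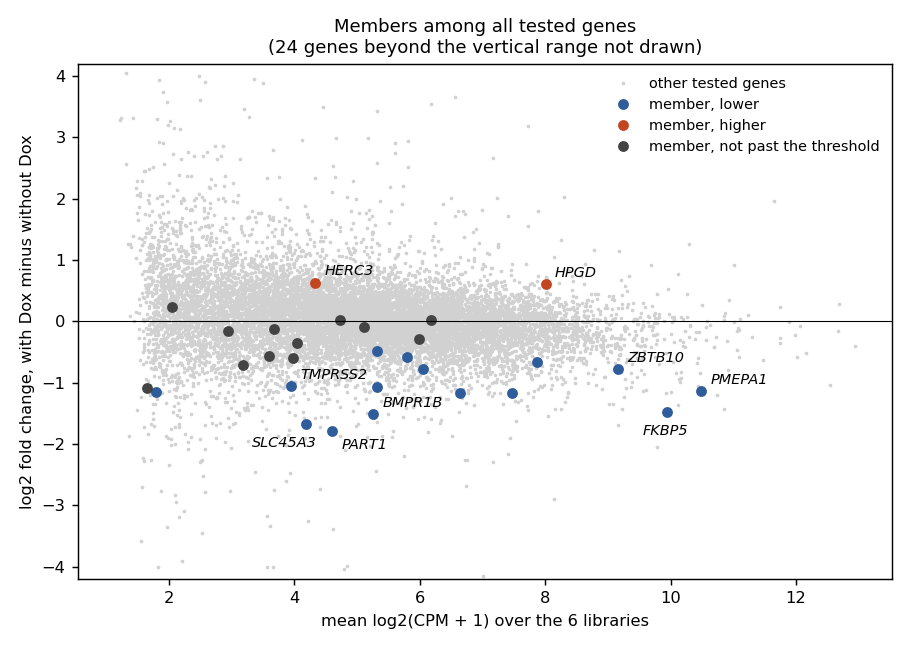
Each point is a tested gene, with the mean log2(CPM + 1) over the 6 libraries on the horizontal axis and the log2 fold change (with Dox minus without Dox) on the vertical axis, where 24 genes beyond its range are not drawn. With ACPP left out, the targets that fell range from TMPRSS2, with 21.0 CPM without Dox, to PMEPA1, with 2134. ACPP passed the count filter only through the libraries without Dox.

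The targets lie on 18 chromosomes. The authors' use of strand in counting is not stated, and reads of genes that overlap on opposite strands cannot then be told apart. Exons of 19 targets overlapped exons of a gene on the opposite strand (GENCODE 44), and 7 of these targets were called: PMEPA1, PART1, TMPRSS2, ZBTB10, ZBTB16, TSC22D3 and HPGD. Their values are uncertain to the extent that reads of the other gene were counted with them, which was not tested. Exons of ABHD5, which is not a target, likewise overlapped exons of ANO10 on the opposite strand. The reads come from the 3′ end of a transcript. Exons on the opposite strand lay within the last 1000 bases of the annotated span of 4 targets. Of these, MED28 and KCNN2 did not pass the test, and GNMT and ALDH1A3 were not tested. Transcripts that end elsewhere in a span were not examined, so the 7 called targets above are not cleared by this.

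The pioneer factors of androgen signalling did not pass the test. FOXA1 had 201 ± 18.5 and 195 ± 54.8 CPM (SD, n = 3 each; adjusted p = 0.878) and HOXB13 had 165 ± 8.63 and 157 ± 17.7 (adjusted p = 0.740), and the sign of both small differences depended on the scaling. NR3C1, the glucocorticoid receptor gene, had 40.5 ± 6.61 and 49.4 ± 3.44 CPM (adjusted p = 0.182). The progesterone receptor gene PGR had at most 1 count, and ERG, the partner of TMPRSS2 in a fusion common in prostate cancer, had none. ETV1, another ETS factor gene, rose from 68.8 ± 9.54 to 142 ± 12.9 CPM (log2 fold change 1.05, adjusted p = 2.477e-05) and NR2F2, an orphan receptor gene, from 63.4 ± 0.983 to 104 ± 8.86 (0.72, adjusted p = 4.425e-04). Its relative NR2F1 fell (-0.45, adjusted p = 0.0405), a call that was lost under 9 of 14 alternatives, without replicate 1 or 3 of either condition among them.

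Of 53 genes of steroid receptors and their partner proteins, 48 were tested, 5 rose and 13 fell, which is 10.4% and 27.1% against 11.9% and 13.7% of all genes. Among the chaperones, 3 of 9 tested fell, PTGES3, HSP90AB1 and DNAJA1, with log2 fold changes of -0.45, -0.41 and -0.39. Of the 18 coactivators, NCOA1 (0.81), RNF6 (0.70) and NCOA4 (0.45) rose, and ARID1A (-0.86), TRIM24 (-0.50) and PRMT1 (-0.44) fell. Of the 11 corepressors tested, 5 fell, with TLE3 (-0.95), EZH2 (-0.95) and HDAC1 (-0.40) first by adjusted p, and none rose. Many of these changes were small, and the number that fell was 6 when libraries were scaled by their totals alone and 6 to 7 without replicate 1 or 2 without Dox or replicate 1 with Dox. Of all genes, 1136 of 12233 fell with library totals alone, and 1228 to 1385 without any 1 of those libraries. HSP90AB1, DNAJA1, PRMT1 and HDAC1 each lost the call with library totals alone and without replicate 1 with Dox, and NCOA4 without replicate 1 of either condition.

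**Figure D4:**
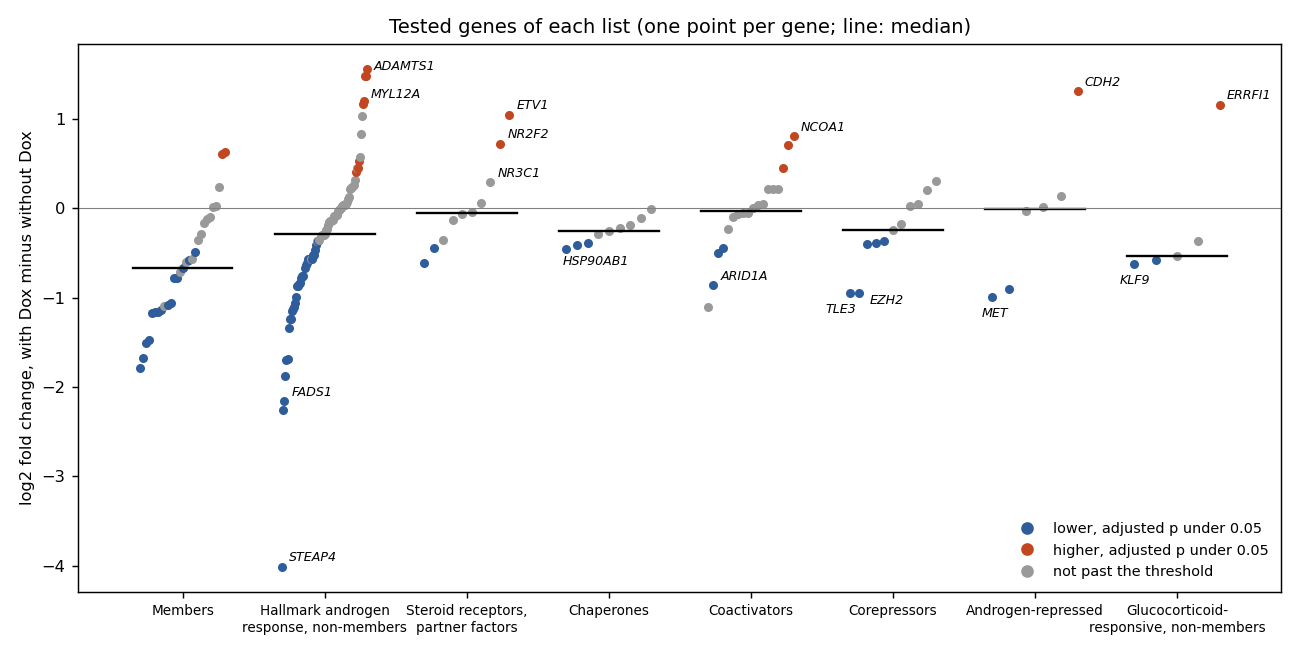
Each point is the log2 fold change (with Dox minus without Dox) of a tested gene of the list named on the horizontal axis, and each line the median of the list. The targets described here have a median of -0.67 and the other hallmark genes -0.29, while the coactivators lie around 0, with a median of -0.03.

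A wider set of androgen-regulated genes also leaned downward. Of 82 genes of the hallmark androgen response list that are not among the 40 targets, 81 were tested, 33 fell (40.7%, against 13.7% of all genes) and 8 rose (9.88%, against 11.9%), with a median log2 fold change of -0.29. The list was transcribed by hand and was not checked against a release. FADS1, a fatty acid desaturase gene, and STEAP4 led those that fell, ranked by adjusted p. STEAP4, a metalloreductase gene, went from 42.2 ± 2.84 to 2.80 ± 1.06 CPM. Exons on the opposite strand lay within the last 1000 bases of its annotated span, so reads of another gene could be included. This was not tested. The list also holds 8 genes of sterol and fatty acid synthesis, FADS1 among them, and all 8 fell. Without these genes, a split made after the values were seen, 25 of 73 fell (34.2%) and the median was -0.16. MYL12A, a myosin light chain gene (1.17), ADAMTS1, a secreted metalloprotease gene (1.48), and PTPN21, a tyrosine phosphatase gene (1.48), rose with the smallest adjusted p.

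Of 12 genes that androgen represses, on a list compiled by hand, 6 were tested, 1 rose and 2 fell. That is 16.7% and 33.3%, against 11.9% and 13.7% of all genes, and so few genes carry no result about the list. CDH2, which encodes N-cadherin, rose from 1.75 ± 0.159 to 4.45 ± 1.04 CPM (log2 fold change 1.31, adjusted p = 0.0221). It lost the call without any 1 of 5 libraries and with DESeq2. The count filter admitted CDH2 only through the libraries with Dox, where it was higher, so this call lends no support to a rise. MET, the receptor of hepatocyte growth factor, fell (-0.99, adjusted p = 1.169e-04), as did PEG10, a retrotransposon-derived gene (-0.91, adjusted p = 3.111e-05). OPRK1 and BCHE were at 0 counts in every library. Of 9 genes that respond to glucocorticoids, FKBP5, ZBTB16 and TSC22D3 are among the targets above. Of the 5 others tested, the feedback inhibitor gene ERRFI1 rose (1.16, adjusted p = 1.232e-04). The transcription factor genes KLF9 (-0.62, adjusted p = 0.00485) and CEBPD (-0.58, adjusted p = 0.0263) fell. The shares were 20% higher and 40% lower, again of few genes, against 11.9% and 13.7% of all genes. CEBPD lost the call under 4 of 14 alternatives, replicate 3 without Dox or replicate 1 or 2 with Dox left out among them.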

How the data were processed

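QuantSeq 3ʹ mRNA libraries of 3 control and 3 OE samples were sequenced as 100 bp single-end reads. The kit is named FWD in the sample labels but REV in the paper's methods. The submitters' processing notes list CASAVA 1.8.2, FastQC, STAR, HTSeq, edgeR and hg38, and neither annotation nor strand setting is given in the sources used here. The deposited files hold raw counts for each gene symbol and, per library, a normalized signal from the authors whose scaling is not stated. Entries without a gene, namely no-feature reads (32.5% to 39.5%) and ambiguous reads (3.05% to 3.37%), were excluded before scaling.

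Counts were tested in R 4.3.3 by the quasi-likelihood method of edgeR 4.0.16 after TMM scaling and filterByExpr, with Benjamini-Hochberg adjustment over 12233 genes and a threshold of 0.05. A fold against libraries all at 3 counts or under was computed against 3 counts per library. This limit covers counting error only, since reads carry no molecular identifiers. On simulated counts of 12233 genes, the test called 82% of 2-fold and 93% of 4-fold changes, and 4.37% of calls were false. The simulation changed far fewer genes than were called in the data, equally up and down, so these rates need not hold here. Alternatives were other scalings and filters, DESeq2 1.42.0, limma 3.58.1 on the deposited signal as log2(value + 1), a replicate block and the removal of single libraries. Names of 27 rows differed in the signal files. Replicates differed by more than counting noise (chi-square per degree of freedom 4.07 to 11.3).

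The members and lists were chosen with earlier results of these data known. All 40 targets were accounted for, with values per library for the 3 called ones of smallest adjusted p in each role. Of uncalled targets, the 4 of largest change and the 4 of highest CPM were named, and those under the filter with their counts; the rest were added for completeness. From each other list, the 3 genes of smallest adjusted p in each direction were named, plus NR3C1, FOXA1, HOXB13 and ABHD5; some genes that this rule picks are not reported here. PGR, ERG, OPRK1, BCHE and the markers were named after their values were seen. Promoters are from RefSeq (GRCh38.p14), where 13 targets had no entry, and gene coordinates from GENCODE 44 on hg38.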

Additional observations from a re-analysis of the deposited data

How the results depend on the processing

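Besides the values reported, 14 alternatives were run, and the hallmark list without 8 lipid synthesis genes was added after seeing the data. The number of targets that fell was 13 to 16, and 13 of them (ELL2, ZBTB10, ZBTB16, TMPRSS2, SLC45A3, BMPR1B, FKBP5, PMEPA1, RAB3B, TPD52, MPHOSPH9, C1orf116 and PART1) fell in every alternative. Of all genes tested, 1136 to 1887 fell. Scaling by library totals alone moved the median change over all genes from 0.02 to 0.14 (log2) and that of the targets to -0.55, so that the distance between them stayed at -0.69, and it left 13 targets lower and 2 higher. Over all genes, this scaling turned the balance from 1451 higher and 1674 lower to 2179 higher and 1136 lower. Across the fits that each left out 1 library, the targets' median was -0.73 to -0.60. In these fits 13 to 15 targets were lower and 2 to 3 higher, against 1228 to 1653 lower and 953 to 1459 higher of all genes tested. IQGAP2 was among those higher without any 1 library without Dox or without replicate 1 with Dox. There the count filter admitted it only through libraries with Dox, where it was higher, so these calls lend no support to a rise.

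Receptor partner genes that fell numbered 8 with upper-quartile normalization, 6 with library totals alone and 6 to 12 with 1 library left out. Glucocorticoid-responsive genes outside the targets that fell numbered 1 with library totals alone and 1 to 3 with 1 library left out. Androgen-repressed genes that rose numbered 0 with at least 10 counts in every library, 0 with DESeq2 and 0 to 1 with 1 library left out. The other hallmark genes that rose numbered 5 to 9 with 1 library left out. For the named genes, 788 of the alternative values kept direction and side of the threshold, 69 lost the call and 4 gained it.

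The 15 values that changed sign were all of uncalled genes. With library totals alone they were MED28 (0.024), NDRG1 (0.0020), FOXA1 (0.079) and HOXB13 (0.055), and with upper-quartile normalization FOXA1 (0.012). FOLH1 was at -2.249e-04 without a filter. With 1 library left out, the range was -0.25 to 0.042 for MED28, -0.23 to 0.21 for FOLH1, -0.084 to 0.62 for ABCC4, -0.053 to 0.106 for CAMKK2, -0.28 to 0.13 for FOXA1 and -0.14 to 0.017 for HOXB13. The cause was not tested. Libraries that share a replicate number were not treated as pairs. Their deviations from the group means had correlations across genes of -0.0106, 0.245 and 0.0856. Libraries of unlike number had -0.178 to 0.118, and these values do not settle whether replicates were paired. With a replicate block, 16 targets were lower (LIFR gained the call) and 2 higher, of 3537 genes called in all. Depth limits the targets with under 30 counts per library, such as ACPP, ABCC4 and SORD.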

Other observations

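NGFR, the low-affinity neurotrophin receptor gene, stands on the list of basal epithelial markers and was singled out after its values were seen. It had 1, 3 and 1 counts without Dox and 86, 58 and 158 with Dox, at least 24.8-fold higher by means when the limit of 3 counts per library stands for the level without Dox. Of the other basal markers, KRT5 and KRT14 were at 0 in every library, TP63 had at most 1 count and KRT15 at most 5. COL1A1, a stromal marker, had 14, 5 and 12 counts without Dox and 24, 13 and 58 with Dox (log2 fold change 1.22, adjusted p = 0.0313, edgeR's quasi-likelihood test), with overlapping conditions, and it lost the call under 6 of 13 alternatives, without replicate 2 or 3 without Dox or replicate 1 or 3 with Dox among them (adjusted p up to 0.166). Among the luminal markers, KRT18 (-0.57) and EPCAM (-0.52) were lower with Dox (adjusted p = 0.00189 and 0.00955, same test; EPCAM not without replicate 3 without Dox), while KRT8 (-0.30, adjusted p = 0.2005) and CDH1 (-0.12, adjusted p = 0.600) did not pass.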
